A study of Homo sapiens with 18 samples.

Results

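Gene expression was compared directly between VCaP cells treated with 50 µM PBITE-1 for 8 h and for 4 h, with no DMSO sample in the comparison. The members were the 6 samples that the labels give to these times, 3 at each, out of 18 samples in 6 groups. The other groups, also of 3 samples each, were parental VCaP cells in DMSO, parental VCaP cells after 12 h of 50 µM PBITE-1, and VCaP-shERG cells in DMSO or with doxycycline (Dox) at 1 µg/mL. VCaP cells, a line from a prostate cancer, have TMPRSS2 fused to ERG, so that androgen-driven regulatory DNA of TMPRSS2 drives ERG, a transcription factor of the ETS family. PBITE-1 is a small molecule that the study selected for binding the PNT domain of ERG, and in VCaP-shERG cells Dox turns on a short hairpin RNA against ERG. All samples came from this 1 line in medium with serum, and the study describes the PBITE-1 samples as biological replicates, while the labels give only replicate numbers. The labels give the DMSO samples no time of collection, so a change under the compound and a change with time in culture cannot be told apart between 4 and 8 h.

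A compound that stresses a cell is usually followed by layers of transcription. Immediate early genes such as JUN and FOS need no new protein and move first, while transcription factors made in that first layer act on later genes. The integrated stress response is such a later layer. Kinases that sense amino acid shortage, unfolded protein, or other stress slow protein synthesis and allow ATF4 to be translated, and ATF4 then turns on amino acid transport, amino acid synthesis, and aminoacyl-tRNA synthetase genes through a DNA site named CARE. In prostate epithelium FOXA1, HOXB13, and other lineage factors hold the luminal program, and MYC drives the genes that build ribosomes. The question put to the 6 samples was which of these programs still moved between the early and the intermediate time.

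Levels are given as CPM, counts relative to the library total, scaled by TMM, the trimmed mean of M values, as mean ± SD of 3 samples or as the 3 samples in the order of their replicate numbers. Changes are log2 fold changes of 8 h against 4 h ± SE from limma-voom, a linear model of log counts fitted to all tested genes, with p-values adjusted by Benjamini-Hochberg. A gene is said to have risen or fallen when its adjusted p was under 0.05, and it is called when the log2 fold change was also above 1 or below -1. The samples held 12206814 to 13639526 counts at 4 h and 11308600 to 17483423 at 8 h. Replicates varied little, with a common biological coefficient of variation of 0.0441 over the 12 parental samples, DMSO and 12 h included. Of the 14164 genes tested, 628 (4.43%) were called higher at 8 h and 315 (2.22%) lower. With the adjusted p alone, 3783 (26.7%) rose and 3732 (26.3%) fell, and these shares are the background for the counts of list members below. The 3 samples at 8 h lay above the 3 at 4 h for 4313 genes (30.5%) and below them for 4216 (29.8%). Over all tested genes the median change was 0.00 on the log2 scale. Many called genes were weakly expressed, since 327 of the higher and 190 of the lower ones had a mean below 50 counts in these 6 samples. The genes named as the largest changes come from the 301 higher and 125 lower genes that had at least 50 counts and no overlap between the times.

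**Figure D1:**
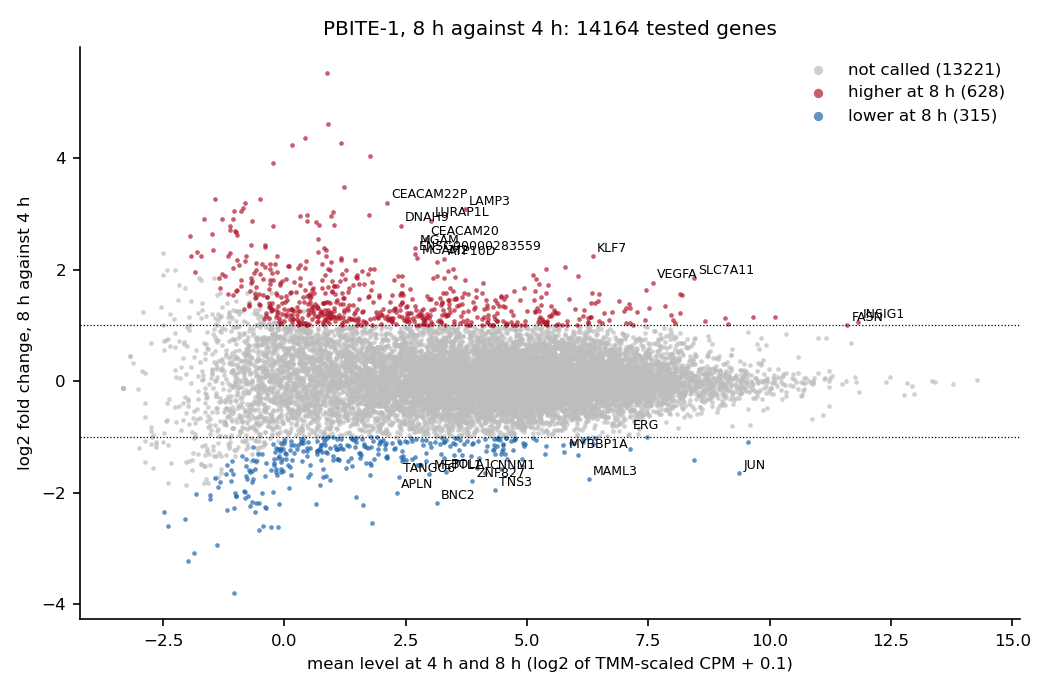
Log2 fold change of 8 h against 4 h of PBITE-1 (vertical axis) over the mean level at the 2 times (horizontal axis, log2 of TMM-scaled CPM + 0.1), 1 point per tested gene, with red for genes called higher, blue for genes called lower, and dotted lines at log2 fold changes of 1 and -1. The 628 higher calls reach further from 0 than the 315 lower ones, and the points furthest out on both sides lie at low levels.

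Between 4 and 8 h most genes of amino acid transport, the integrated stress response, and cholesterol synthesis rose, and most genes of ribosome biogenesis and most prostate lineage factors fell, with the counts given below. LAMP3, a lysosomal membrane protein, was among the genes with the largest rise. It measured 2.97, 2.88, and 2.37 CPM at 4 h and 22.4, 25.3, and 22.3 CPM at 8 h, with the groups far apart, and it had a log2 fold change of 3.08 ± 0.30, limma-voom adjusted p = 3.13e-11. KLF7, a Krüppel-like transcription factor, had closely spaced replicates. Its level was 29.5, 26.4, and 30.0 CPM at 4 h and 136, 136, and 134 CPM at 8 h, a 4.73-fold rise with a log2 fold change of 2.24 ± 0.10, limma-voom adjusted p = 3.09e-21. In the DMSO samples KLF7 measured 26.4 ± 1.5 CPM, close to its level at 4 h, and at 12 h it measured 108 ± 20.4 CPM. LURAP1L, named for its likeness to an adaptor protein, moved from 1.93 ± 0.579 CPM to 14 ± 0.981 CPM, and DNAH9, a heavy chain of axonemal dynein, from 1.31 ± 0.293 CPM to 9.03 ± 0.597 CPM. ATP10D, a phospholipid-transporting ATPase, rose from 3.44 ± 0.474 CPM to 15.9 ± 1.37 CPM, against 0.162 ± 0.0271 CPM in DMSO.

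The other genes with the largest rises were pseudogenes or lay beside a related gene. CEACAM22P, a pseudogene at chr19:44537058-44620821 on GRCh38, and its neighbour CEACAM20, a cell adhesion gene, had log2 fold changes of 3.20 ± 0.42 and 2.54 ± 0.26. The first overlaps IGSF23 on the opposite strand. CEACAM22P was measured at 1.24, 1.18, and 0.296 CPM at 4 h and 6.13, 7.37, and 9.24 CPM at 8 h, so that its level at 4 h rests on few counts. MGAM, the intestinal enzyme maltase-glucoamylase, and its paralog and neighbour MGAM2 had log2 fold changes of 2.38 ± 0.25 and 2.21 ± 0.24, and both moved from about 2 to about 11 CPM. ENSG00000283559, an unnamed transcribed pseudogene on chromosome 5, rose from 2.13 ± 0.395 CPM to 10.6 ± 1.16 CPM. How reads were shared between such neighbours is not given, and 78 of the 172 genes chosen for naming overlap another annotated gene.

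BNC2, a zinc finger protein, had the largest fall among the genes with at least 50 counts. Its samples measured 13.8, 13.5, and 15.7 CPM at 4 h and 3.09, 3.10, and 3.23 CPM at 8 h, with a tight group at 8 h, and it had a log2 fold change of -2.18 ± 0.17, limma-voom adjusted p = 1.44e-13. BNC2 was at 14.5 ± 0.226 CPM in DMSO and 1.27 ± 0.194 CPM at 12 h. TNS3, a tensin that links integrins to the cytoskeleton, showed the same order of levels. It measured 34.5, 30.3, and 31.7 CPM at 4 h and 8.69, 7.85, and 8.16 CPM at 8 h (log2 fold change -1.95 ± 0.11, limma-voom adjusted p = 1.79e-17). In DMSO TNS3 was at 36.4 ± 1.20 CPM and at 12 h at 2.82 ± 0.484 CPM. MAML3, a coactivator of Notch, fell from 119 ± 4.75 CPM to 35.3 ± 2.18 CPM, and ZNF827, a zinc finger protein, from 22.6 ± 0.446 CPM to 6.45 ± 1.15 CPM. APLN, the ligand of the apelin receptor, fell from 7.81 ± 0.978 CPM to 1.92 ± 0.0573 CPM. TANGO6, a gene linked to Golgi organization, and CNNM1, of a family of magnesium transport mediators, had log2 fold changes of -1.71 ± 0.23 and -1.65 ± 0.11. METTL1, a tRNA methyltransferase, had -1.66 ± 0.18 on the same scale, and it overlaps CYP27B1 and EEF1AKMT3. BOLA1, a mitochondrial iron-sulfur cluster protein, had -1.63 ± 0.16 and overlaps a histone gene on the opposite strand.

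**Figure D2:**
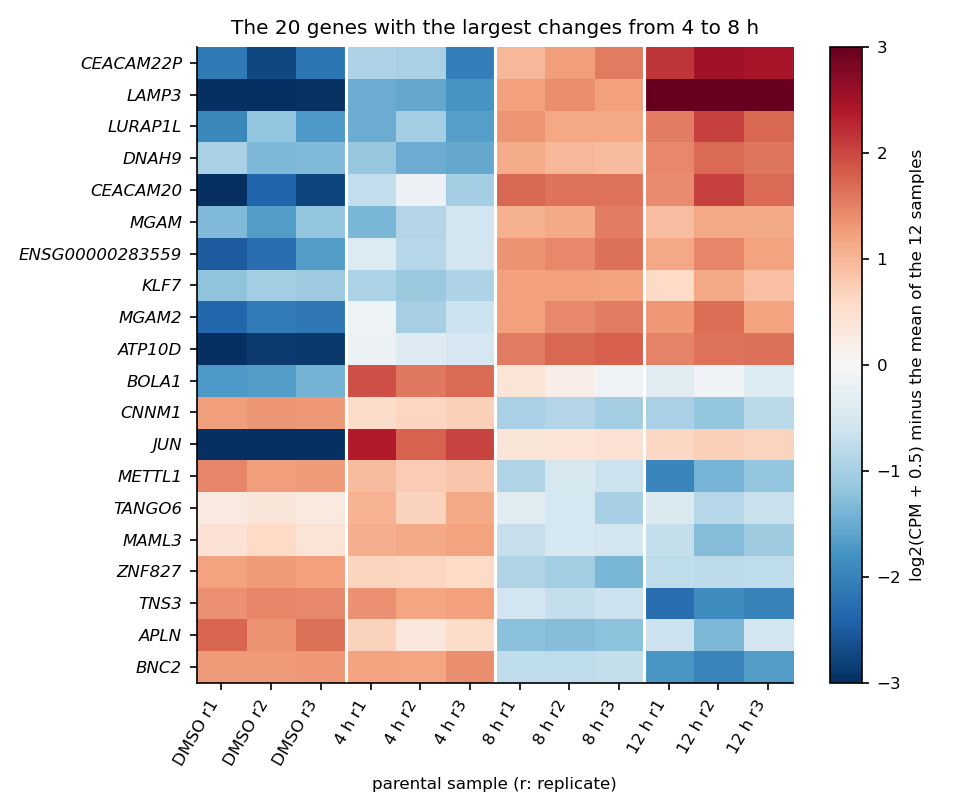
Levels of the 20 genes with the largest changes (10 higher, 10 lower) in the 12 parental samples, as log2(CPM + 0.5) minus the gene's mean over the 12 samples, red above and blue below that mean, with the colours ending at 3 and -3. The 3 columns at 8 h differ from the 3 at 4 h in every row, as the choice of genes requires, and JUN, BOLA1, MAML3, and TANGO6 have their highest mean at 4 h.

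Most genes of the integrated stress response rose. Of its 19 tested members, 14 rose and 2 fell, with 5 called higher and a median log2 fold change of 0.78. Without replicate 2 or 3 of 4 h, or replicate 1 or 2 of 8 h, 1 fell. GDF15, a secreted stress cytokine, measured 24.2, 21.0, and 19.7 CPM at 4 h and 90.5, 84.9, and 90.2 CPM at 8 h, a 4.12-fold rise (log2 fold change 2.04 ± 0.09, limma-voom adjusted p = 3.15e-20). TRIB3, a pseudokinase that ATF4 induces and that in turn restrains it, measured 41.1, 47.8, and 46.0 CPM at 4 h and 134, 129.5, and 138 CPM at 8 h (log2 fold change 1.57 ± 0.07, limma-voom adjusted p = 3.96e-21). Both had samples that were far apart between the times. JDP2, a bZIP repressor of AP-1 sites, rose from 13.4 ± 0.965 CPM to 33.1 ± 4.21 CPM, and CEBPB, a bZIP partner of ATF4, from 57.6 ± 2.96 CPM to 134 ± 6.43 CPM. ASNS, asparagine synthetase, was named for its promoter after its values were seen, and it rose from 504 ± 18.9 CPM to 1118 ± 25.6 CPM (log2 fold change 1.15 ± 0.04, limma-voom adjusted p = 4.79e-23). ATF3 and CHAC1, also members, did not pass the test. ATF3, a bZIP factor of the first hours of stress, measured 334, 248, and 254 CPM at 4 h and 249, 254, and 263 CPM at 8 h and overlapped between the times, with a log2 fold change of -0.11 ± 0.08 (limma-voom adjusted p = 0.226). CHAC1, a glutathione-degrading enzyme, measured 36.3, 44.1, and 39.0 CPM at 4 h and 38.9, 41.1, and 41.4 CPM at 8 h, with 0.02 ± 0.08 (limma-voom adjusted p = 0.857). In DMSO, ATF3 was at 0.632 ± 0.352 CPM and CHAC1 at 0.0600 ± 0.0573 CPM, so both stood high at 4 h and at a similar level at 8 h.

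The CARE site was looked for in RefSeq promoters, taken as the 250 bases before the start on GRCh38.p14, which were at hand for 10945 of the tested genes. The motif searched was TGATGNAA on both strands, counted apart from the other motifs. It was in 1.37% of all promoters, in 1.96% of those of genes called higher, and in 1.33% of those of genes called lower. Among the 18 integrated stress response promoters it was in 3, among the 16 of cytosolic aminoacyl-tRNA synthetases in 2, among the 7 of serine and one-carbon enzymes in 1, and among the 10 of amino acid transporters in 0. The 6 matches are shown because their genes went different ways. In the lines that follow, written 5′ to 3′ on the strand of the gene, capitals mark the match.
ASNS, chr7:97872443-97872502, minus strand: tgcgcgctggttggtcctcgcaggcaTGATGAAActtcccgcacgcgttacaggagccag
AARS1, chr16:70289660-70289719, minus strand: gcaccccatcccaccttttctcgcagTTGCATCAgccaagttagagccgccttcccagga
ATF3, chr1:212565190-212565249, plus strand: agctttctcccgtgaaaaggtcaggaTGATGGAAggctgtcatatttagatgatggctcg
CHAC1, chr15:40953236-40953295, plus strand: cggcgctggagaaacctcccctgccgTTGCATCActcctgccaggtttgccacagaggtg
IARS1, chr9:92293698-92293736, minus strand: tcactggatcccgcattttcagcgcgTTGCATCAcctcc
MTHFD1L, chr6:150866331-150866390, plus strand: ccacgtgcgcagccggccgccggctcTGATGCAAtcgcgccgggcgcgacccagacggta

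ASNS and AARS1 rose, with log2 fold changes of 1.15 and 1.10, while ATF3, CHAC1, and IARS1 did not pass the test, with -0.11, 0.02, and 0.08, and MTHFD1L fell by 0.33. A match in these letters was thus found in genes of all 3 kinds. Other motifs were searched the same way. The E-box CACGTG, bound by MYC and its relatives, was in 8.76% of all promoters, 6.54% of those called higher, 9.73% of those called lower, and 2 of 29 for ribosome biogenesis. The cyclic AMP element TGACGTCA was in 2.91%, 2.18%, and 1.77% of the same 3 sets in that order. The metal response element, TGCACNC or TGCGCNC, was in 33.6%, 28.8%, and 29.6%. The heat shock element was in 34 promoters of all 10945 and in 3 of the 19 of the heat shock list, and the sterol response element was in 9 of all and in 1 of the 18 of cholesterol synthesis.

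Most amino acid transporters rose as well. Of 11 tested amino acid transporters, 9 rose and 1 fell, with 3 called higher and a median of 0.72. SLC7A11, the cystine carrier that feeds glutathione synthesis, measured 142, 156, and 156 CPM at 4 h and 529, 542, and 563 CPM at 8 h, a 3.58-fold rise (log2 fold change 1.84 ± 0.07, limma-voom adjusted p = 4.79e-23). Its DMSO level was 33.0 ± 4.51 CPM and its 12 h level 1056 ± 149.7 CPM, so that 8 h lay between 4 h and 12 h. SLC6A9, a glycine carrier, rose from 2.77 ± 0.546 CPM to 8.97 ± 2.23 CPM, SLC1A4, a carrier of alanine and serine, from 87.6 ± 4.93 CPM to 159 ± 5.08 CPM, and SLC38A2, a glutamine carrier, from 928 ± 14.4 CPM to 1668 ± 27.4 CPM. SLC7A5, a carrier of large neutral amino acids and named after its values were seen, had the highest log2 fold change of the list, 2.55 ± 0.45, at a mean below 50 counts, with 0.412, 0.369, and 0.444 CPM at 4 h and 3.44, 1.86, and 2.51 CPM at 8 h. Of the 10 serine and one-carbon enzymes, 7 rose and 3 fell, with a median of 0.40. PSAT1, of serine synthesis, measured 268, 265, and 257 CPM at 4 h and 548, 557, and 558 CPM at 8 h (log2 fold change 1.07 ± 0.04, limma-voom adjusted p = 7.66e-24), and MTHFD2, of mitochondrial folate metabolism, rose from 262 ± 4.04 CPM to 424 ± 8.88 CPM. ALDH1L2 and SHMT2, also of mitochondrial folate metabolism, had log2 fold changes of 1.15 ± 0.21 and 0.58 ± 0.04. The 20 cytosolic aminoacyl-tRNA synthetases split, with 10 that rose and 6 that fell and a median of 0.13. CARS1, which charges the cysteine tRNA, measured 51.8, 47.5, and 48.7 CPM at 4 h and 109, 109, and 108 CPM at 8 h, and AARS1, which charges that of alanine, measured 172, 171, and 149 CPM at 4 h and 342, 361, and 351 CPM at 8 h. They were the 2 synthetases called higher. GARS1 and TARS1, for glycine and threonine, had log2 fold changes of 0.75 ± 0.04 and 0.68 ± 0.04.

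Nearly all sterol synthesis genes rose. Of 23 tested genes of cholesterol synthesis and uptake, 21 rose and 1 fell, with 7 called higher and a median log2 fold change of 0.80, the highest median of the 37 gene lists. INSIG1, the endoplasmic reticulum anchor that holds SREBP back when sterols are plentiful and is itself an SREBP target, measured 2121, 2669, and 2284 CPM at 4 h and 4969, 5005, and 4782 CPM at 8 h (log2 fold change 1.07 ± 0.04, limma-voom adjusted p = 3.53e-23). Its DMSO level was 415 ± 15.7 CPM. MVD and MVK, enzymes of the mevalonate pathway, had log2 fold changes of 1.52 ± 0.11 and 1.15 ± 0.06, and MSMO1, a sterol demethylase, rose from 693 ± 78.4 CPM to 1529.9 ± 24.0 CPM. MSMO1 measured 891 ± 55.7 CPM at 12 h, below its level at 8 h. Without replicate 2 or 3 of 4 h, or replicate 2 or 3 of 8 h, 0 members fell. Of 9 fatty acid synthesis genes, 7 rose and 2 fell, with a median of 0.45. ACSS2, which makes acetyl-CoA from acetate, measured 80.1, 92.3, and 85.7 CPM at 4 h and 277, 269.8, and 252 CPM at 8 h, a 3.10-fold rise (log2 fold change 1.63 ± 0.05, limma-voom adjusted p = 1.14e-24). FASN, fatty acid synthase, measured 1929, 2225, and 2042 CPM at 4 h and 4256, 4210.2, and 3966 CPM at 8 h (log2 fold change 1.01 ± 0.04, limma-voom adjusted p = 1.37e-21), and it was at 1373 ± 98.8 CPM in DMSO and 10538 ± 634 CPM at 12 h. SCD, a desaturase, and SREBF1, which encodes SREBP-1, rose with log2 fold changes of 0.69 ± 0.03 and 0.85 ± 0.06.

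**Figure D3:**
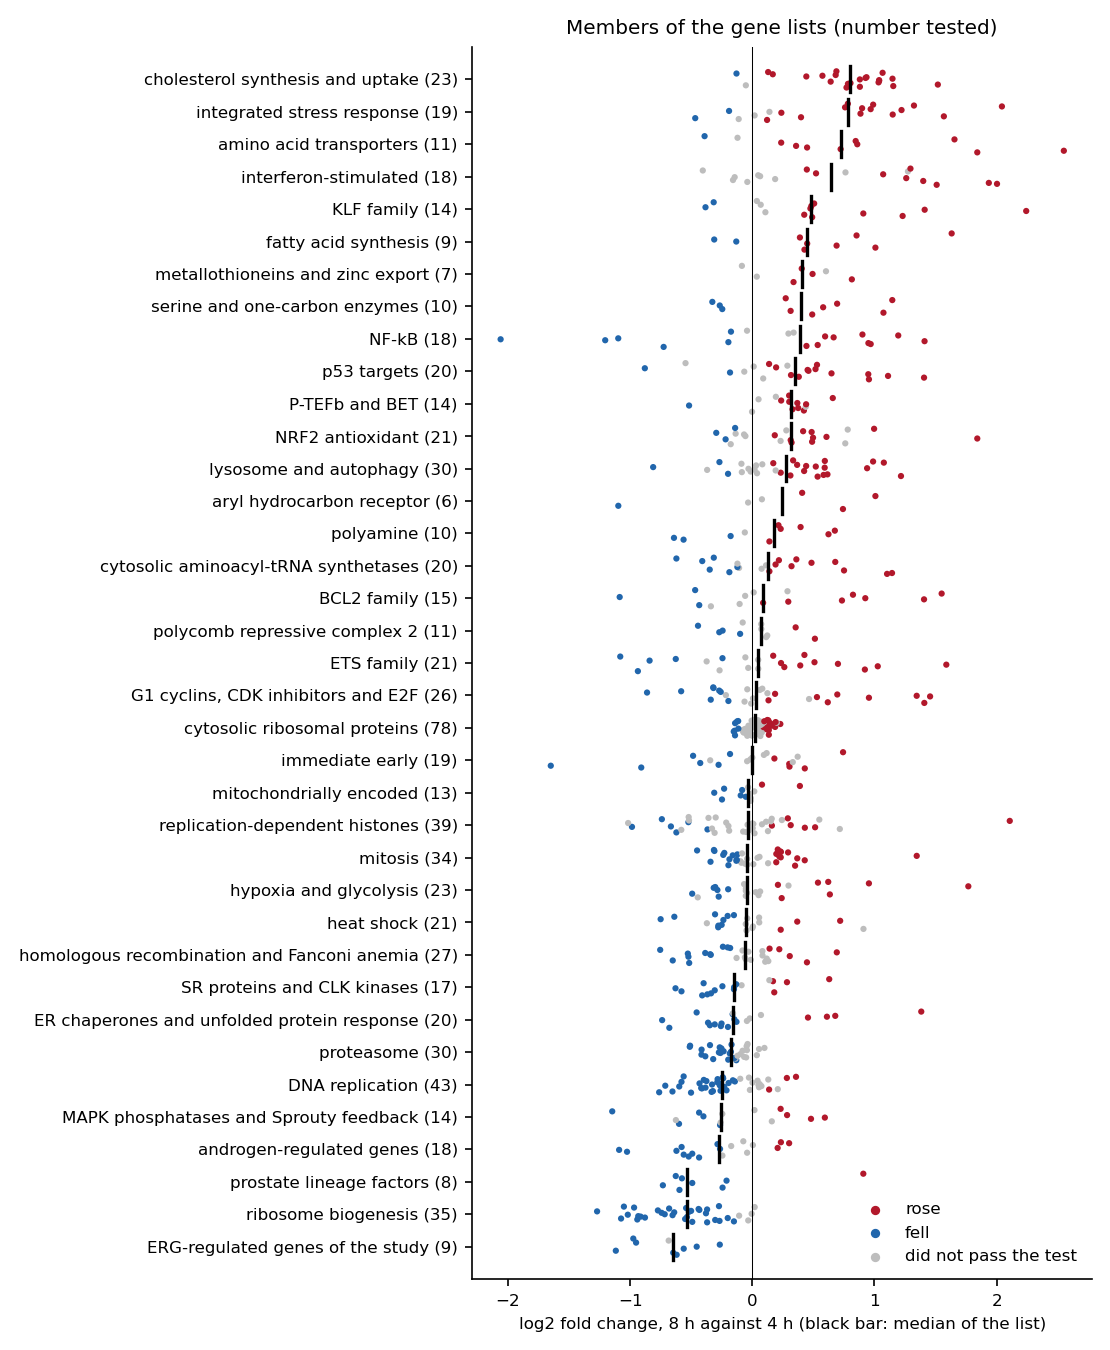
Log2 fold change of 8 h against 4 h for each tested member of the 37 lists (points, red for rose, blue for fell, grey for neither), with the number tested beside the name and a black bar at the median. Cholesterol synthesis, the integrated stress response, and amino acid transporters have the highest medians, at 0.80, 0.78, and 0.72, and prostate lineage factors, ribosome biogenesis, and the ERG-regulated genes of the study the lowest, at -0.53, -0.54, and -0.65.

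Most ribosome biogenesis genes fell. Of 35 genes of ribosome biogenesis, none rose and 31 fell, with 4 called lower and a median log2 fold change of -0.54. MYBBP1A, a nucleolar protein, measured 78.3, 78.3, and 73.8 CPM at 4 h and 32.4, 29.7, and 33.7 CPM at 8 h (log2 fold change -1.27 ± 0.07, limma-voom adjusted p = 7.21e-19). POLR1A, the largest subunit of RNA polymerase I, measured 109.8, 114, and 115 CPM at 4 h and 57.9, 54.0, and 55.2 CPM at 8 h (log2 fold change -1.02 ± 0.05, limma-voom adjusted p = 1.23e-18). NOP16 and MRTO4, assembly factors of the large subunit, had log2 fold changes of -1.07 ± 0.13 and -1.05 ± 0.07. The genes of the ribosome's own proteins moved little in either direction. Of 78 cytosolic ribosomal protein genes, 16 rose and 7 fell, between log2 fold changes of -0.15 and 0.23, with a median of 0.02. RPS12 rose from 367 ± 18 CPM to 429.7 ± 6.87 CPM, and RPLP1 and RPS20 had log2 fold changes of 0.19 and 0.19. These counts turn on 1 library, since 27 rose and 4 fell without replicate 1 of 4 h. MYC, which drives ribosome genes, fell from 38.4 ± 2.35 CPM to 27.4 ± 1.63 CPM, and it was at 339 ± 14.2 CPM in DMSO. Many proteasome genes fell as well. Of 30 proteasome subunits, none rose and 18 fell, with a median of -0.17. PSMD11 and PSMD7, lid subunits, had log2 fold changes of -0.51 ± 0.04 and -0.51 ± 0.06, and PSMD1 and PSMB5 had -0.42 and -0.42.

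More protein folding genes fell than rose. Of 20 endoplasmic reticulum chaperones and unfolded protein response genes, 12 fell and 4 rose, with a median of -0.16. HSPA5, the main chaperone of that compartment, measured 2356, 2334, and 2273 CPM at 4 h and 1482, 1439, and 1422 CPM at 8 h (log2 fold change -0.68 ± 0.03, limma-voom adjusted p = 5.68e-21), and SDF2L1, a co-chaperone, fell from 17.3 ± 1.85 CPM to 10.4 ± 0.571 CPM. HSPA5 was at 1859 ± 76.5 CPM in DMSO, so its level at 8 h lay below DMSO and that at 4 h above. ERN1, which encodes the stress sensor IRE1, went the other way, with 76.4, 72.6, and 78.5 CPM at 4 h and 192, 199, and 203 CPM at 8 h (log2 fold change 1.38 ± 0.07, limma-voom adjusted p = 1.41e-18), and HERPUD1, of protein degradation at this compartment, rose from 220.5 ± 13 CPM to 352 ± 2.5 CPM. Of 21 heat shock genes, most of them cytosolic, 9 fell and 3 rose, with a median of -0.05, and the mitochondrial HSPD1 and HSPE1 were among those that fell. HSPE1, a mitochondrial chaperonin, fell from 135 ± 3.79 CPM to 80.7 ± 3.94 CPM, and AHSA1, an activator of HSP90, from 124 ± 6.01 CPM to 79.8 ± 1.69 CPM. The J-domain proteins DNAJB1 and DNAJB4 rose, by log2 fold changes of 0.37 ± 0.05 and 0.72 ± 0.10.

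Lysosome and autophagy genes leaned upward, with 17 of 30 that rose and 3 that fell and a median of 0.27. Without replicate 1 of 8 h, 1 member fell. MAP1LC3B, which encodes a coat protein of autophagosomes, measured 32.0, 30.3, and 27.2 CPM at 4 h and 66.4, 72.6, and 68.8 CPM at 8 h (log2 fold change 1.22 ± 0.09, limma-voom adjusted p = 1.21e-14). RRAGC, a GTPase that ties mTORC1 to the lysosome, and FLCN, which acts on it, rose from 36.1 ± 2.75 CPM to 76.5 ± 4.61 CPM and from 23.8 ± 2.56 CPM to 47.3 ± 3.02 CPM. NEU1, a lysosomal sialidase, had a log2 fold change of 0.94 ± 0.06. Of 21 NRF2 antioxidant genes, 10 rose and 3 fell, with a median of 0.31. PGD and GCLC, which supply NADPH and glutathione, had log2 fold changes of 0.61 ± 0.04 and 0.49 ± 0.05. Of 7 metallothionein and zinc export genes, 4 rose and none fell, with a median of 0.40. MT2A, a metal-binding protein, measured 345, 270.1, and 268 CPM at 4 h and 382, 427, and 426 CPM at 8 h, against 36.8 ± 3.09 CPM in DMSO, and MT1F, MT1E, and MTF1, the metal-sensing factor, had log2 fold changes of 0.81, 0.34, and 0.40. The metallothioneins are near-identical copies, so that the split of reads between them is uncertain. Of 6 aryl hydrocarbon receptor genes, 3 rose and 1 fell. AHR, the receptor, rose from 9.37 ± 1.52 CPM to 18.6 ± 0.813 CPM, and ARNT, its partner, from 34.3 ± 2.84 CPM to 45.5 ± 0.734 CPM. Of the enzymes that the receptor induces, CYP1B1 fell from 13.2 ± 0.736 CPM to 6.12 ± 0.449 CPM, and CYP1A1, named after its values were seen, rose with a log2 fold change of 0.74 ± 0.27 at a mean below 50 counts, with overlap between the times. Of 10 polyamine genes, 6 rose and 3 fell. SAT1 and SMOX, of polyamine breakdown, had log2 fold changes of 0.62 ± 0.05 and 0.68 ± 0.15, and SRM and AMD1, of synthesis, had -0.64 ± 0.07 and -0.56 ± 0.05. Other members, named after their values were seen, differed from these. ODC1, also of synthesis, rose with 0.14, and PAOX, also of breakdown, did not pass the test, with -0.06.

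**Figure D4:**
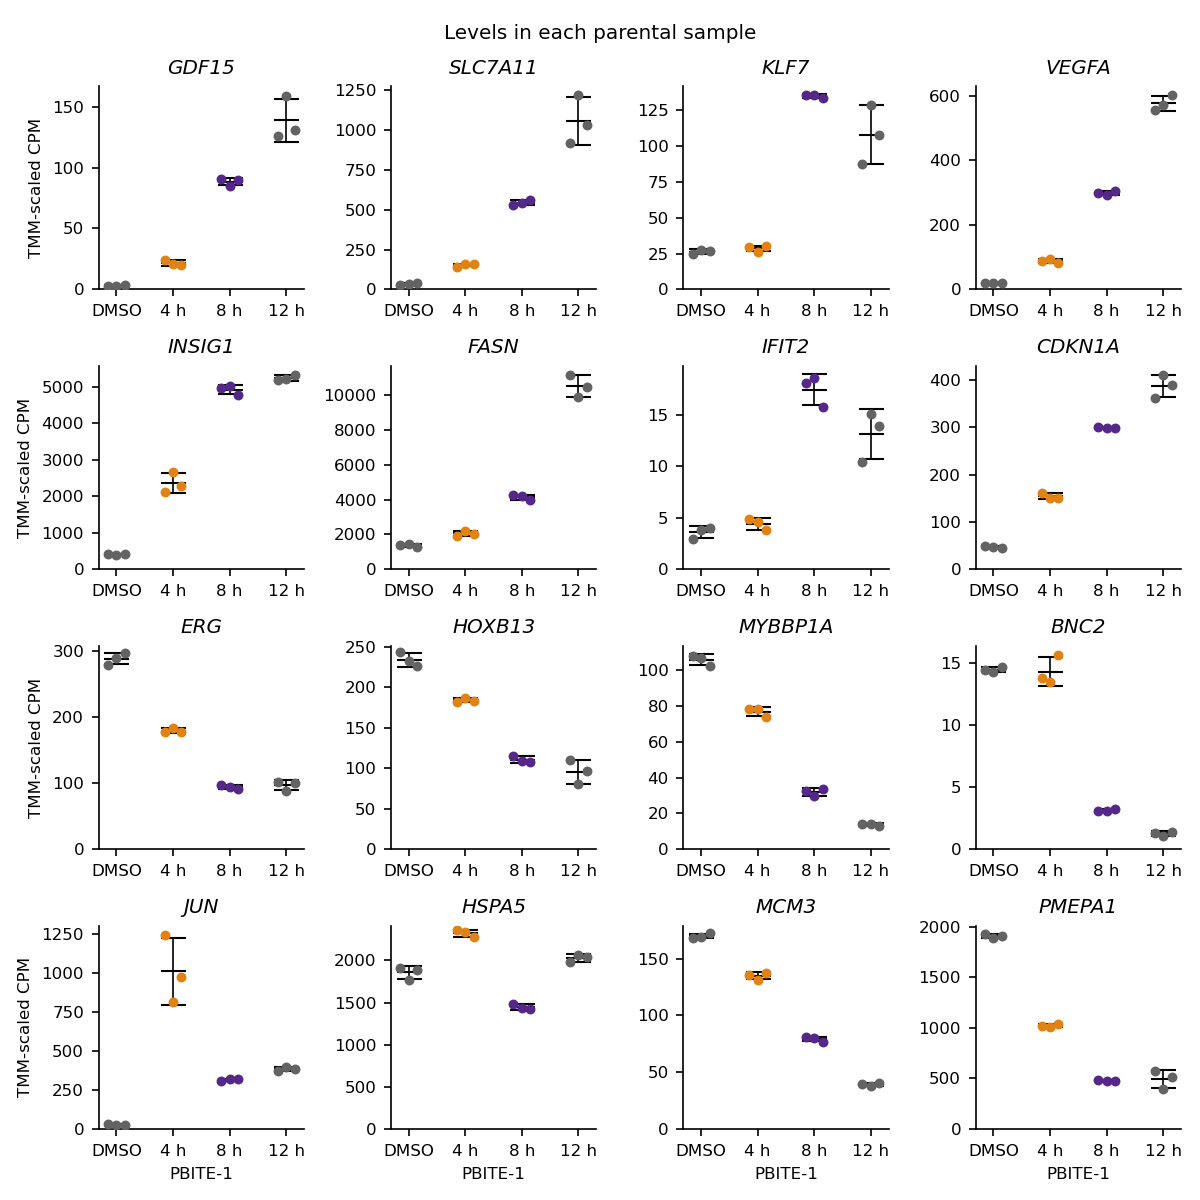
TMM-scaled CPM of 16 genes in each of the 12 parental samples (points, 3 per group, orange at 4 h and purple at 8 h), with bars for the mean ± SD of a group and each vertical axis starting at 0. GDF15, SLC7A11, VEGFA, FASN, and CDKN1A step up at each time, KLF7 and IFIT2 are near the DMSO level at 4 h and high at 8 h, BNC2 is near the DMSO level at 4 h and low at 8 h, and JUN is highest at 4 h.

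Genes of signalling moved in both directions, at shares near the 26.7% that rose and 26.3% that fell among all tested genes. Of 19 immediate early genes, 5 rose (26.3%) and 6 fell (31.6%), with a median of 0.00. JUN, a subunit of AP-1, measured 1241, 816, and 974 CPM at 4 h and 309, 319.7, and 321 CPM at 8 h (log2 fold change -1.65 ± 0.07, limma-voom adjusted p = 6.30e-21). JUN was at 27.1 ± 2.64 CPM in DMSO, so all 3 samples at 8 h were still far above it. FOSB, another AP-1 subunit, fell from 11 ± 3.68 CPM to 5.67 ± 0.249 CPM, while FOS rose from 9.62 ± 1.08 CPM to 13 ± 0.280 CPM. The count that rose was 3 without replicate 2 of 4 h and without replicate 1 of 8 h. Of 14 MAPK phosphatase and Sprouty feedback genes, 4 rose (28.6%) and 5 fell (35.7%). The count that fell was 2 without replicate 1 of 4 h or replicate 1 of 8 h and 3 without replicate 3 of 8 h. DUSP7 and DUSP8, phosphatases of MAP kinases, rose from 29.6 ± 2.38 CPM to 41.2 ± 0.853 CPM and from 17.1 ± 3.29 CPM to 25.3 ± 0.758 CPM. Other phosphatases fell. DUSP2 had a log2 fold change of -0.60, and DUSP10 and DUSP1, named after their values were seen, had -0.40 and -0.26. SPRY4, a Sprouty inhibitor of growth factor signalling named after its values were seen, was the 1 called, with a log2 fold change of -1.15 ± 0.38 at a mean below 50 counts. VEGFA, the vascular growth factor, measured 88.2, 93.1, and 81.7 CPM at 4 h and 300.1, 291, and 304 CPM at 8 h, a 3.41-fold rise (log2 fold change 1.77 ± 0.05, limma-voom adjusted p = 6.63e-27). In DMSO VEGFA was at 19.0 ± 0.553 CPM. Its list, hypoxia and glycolysis, was mixed, with 7 of 23 genes that rose (30.4%), VEGFA included, and 6 that fell (26.1%) and a median of -0.04. PFKFB4, P4HA1, and KDM3A had log2 fold changes of 0.63 ± 0.11, 0.62 ± 0.07, and 0.54 ± 0.05. The 6 that fell, named after their values were seen, were PFKP, LDHA, PDK1, PGAM1, HK1, and ENO1. Their log2 fold changes lay between -0.49 and -0.20.

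Of 18 NF-kB genes, 9 rose and 6 fell, with a median of 0.39, and 3 fell without replicate 1 of 4 h or replicate 1 of 8 h. BIRC3, an inhibitor of apoptosis, measured 55.2, 42.7, and 40.9 CPM at 4 h and 112, 125, and 128 CPM at 8 h (log2 fold change 1.41 ± 0.09, limma-voom adjusted p = 3.98e-16), and NFKB2, a subunit of the noncanonical arm, rose from 27.1 ± 6.09 CPM to 52.4 ± 3.83 CPM. The chemokine CCL20 rose from 4.52 ± 2.24 CPM to 9.53 ± 1.23 CPM, while the chemokine CXCL1 fell from 6.73 ± 2.53 CPM to 2.71 ± 0.132 CPM. Of 18 interferon-stimulated genes, 9 rose and none fell, with 7 called higher and a median of 0.64. IFIT2, an antiviral protein, measured 4.87, 4.58, and 3.77 CPM at 4 h and 18.1, 18.6, and 15.8 CPM at 8 h (log2 fold change 2.00 ± 0.17, limma-voom adjusted p = 1.89e-12). IRF7, a factor that amplifies the response, rose from 19.9 ± 1.74 CPM to 42.0 ± 1.52 CPM, and CXCL10, a chemokine, from 9.94 ± 1.57 CPM to 24.5 ± 2.75 CPM. Most of this list was near the floor, since 10 of its 18 members had a mean below 50 counts and 5 of the 9 that rose did not. The count that rose was 5 without replicate 2 of 4 h and 4 among genes with at least 10 counts in every sample.

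Cell cycle and death genes were mixed, with replication genes on the lower side. Of 43 DNA replication genes, 29 fell and 3 rose, with a median of -0.25 and none called. MCM3, part of the replicative helicase, measured 136, 131, and 137 CPM at 4 h and 81.0, 80.1, and 76.9 CPM at 8 h (log2 fold change -0.76 ± 0.05, limma-voom adjusted p = 2.96e-16), and MCM5, POLA2, and POLE2, of the helicase and of polymerases, had log2 fold changes of -0.65 ± 0.06, -0.60 ± 0.05, and -0.71 ± 0.13. Of 34 mitosis genes, 12 rose and 12 fell. CENPA, KIF20A, and CCNA2 rose, by 0.43, 0.37, and 0.35 on the log2 scale, and UBE2C, of the anaphase machinery, fell from 117 ± 5.14 CPM to 85.1 ± 0.220 CPM. Of 26 G1 cyclin, CDK inhibitor, and E2F genes, 9 rose and 8 fell. The CDK inhibitors CDKN1C and CDKN2B rose from 5.44 ± 0.857 CPM to 14.9 ± 1.45 CPM and from 12.0 ± 1.01 CPM to 30.4 ± 1.78 CPM, while E2F3, a factor of entry into S phase, fell from 205 ± 3.21 CPM to 113 ± 3.56 CPM. The G1 cyclins CCND2 and CCND3, named after their values were seen, also rose. CCND2 was called, with a log2 fold change of 1.41 at a mean below 50 counts, and CCND3 had 0.62. Of 27 homologous recombination and Fanconi anemia genes, 11 fell and 5 rose, and 3 rose without replicate 2 of 4 h, replicate 2 of 8 h, or replicate 3 of 8 h. FANCL, RAD51D, and FANCC fell, by log2 fold changes of -0.75, -0.65, and -0.53, and FANCE rose, by 0.69. The replication-dependent histones were split, with 6 of 39 that rose and 6 that fell. H2BC7, H4C4, H2BC8, and H1-4 had log2 fold changes of -0.99, -0.74, -0.67, and -0.62, and as near-identical copies they are uncertain. Of those that rose, named after their values were seen, H3C11, the 1 called, had 2.11 ± 0.64 at a mean below 50 counts, and H2BC6 had 0.51 ± 0.07.

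Of 20 p53 targets, 13 rose and 2 fell, with a median of 0.35. CDKN1A, the CDK inhibitor p21, measured 162, 152, and 152 CPM at 4 h and 301, 299, and 299.6 CPM at 8 h (log2 fold change 0.95 ± 0.05, limma-voom adjusted p = 7.60e-20), against 47.1 ± 2.89 CPM in DMSO. BBC3, the BH3-only protein PUMA, measured 12.2, 11.5, and 10.3 CPM at 4 h and 27.8, 33.1, and 29.4 CPM at 8 h (log2 fold change 1.41 ± 0.12, limma-voom adjusted p = 9.56e-13). TNFRSF10B, a death receptor, and SESN1, a sestrin, rose from 23.8 ± 1.85 CPM to 51.4 ± 1.44 CPM and from 29.2 ± 0.256 CPM to 56.9 ± 3.92 CPM. Of 15 BCL2 family genes, 7 rose and 3 fell, with a median of 0.09. HRK and BMF, also BH3-only proteins, rose from 1.97 ± 0.818 CPM to 5.59 ± 0.886 CPM and from 18.9 ± 1.20 CPM to 36.0 ± 1.77 CPM, while BID, another of that kind, fell from 11.6 ± 0.807 CPM to 5.39 ± 1.13 CPM.

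Regulators of transcription and splicing moved in both directions. Of 14 P-TEFb and BET genes, 9 rose and 1 fell, with a median of 0.32. AFF4, the scaffold of the super elongation complex, rose from 349 ± 18.1 CPM to 552 ± 21.4 CPM, and CCNT2 had a log2 fold change of 0.42 ± 0.07. Members of the 7SK particle, which holds P-TEFb inactive, went both ways. MEPCE had 0.44 ± 0.08 and LARP7 -0.52 ± 0.07, and HEXIM1, named after its values were seen, rose with 0.38. Of 17 SR proteins and CLK kinases, 11 fell and 4 rose, and 2 rose without replicate 2 of 4 h, replicate 3 of 4 h, or replicate 2 of 8 h. SRSF1, SRSF5, and SRSF8, splicing factors, had log2 fold changes of -0.41, -0.58, and -0.63, and CLK4, a kinase that acts on them, rose from 20.2 ± 2.17 CPM to 31.7 ± 4.07 CPM. Of 11 polycomb repressive complex 2 genes, 2 rose and 4 fell, and EZH1, a methyltransferase, and PHF19 and RBBP4, of the same complex, had 0.51, -0.44, and -0.27. Of 14 KLF genes, 9 rose and 2 fell, with 3 called higher, KLF7 among them, and a median of 0.48. KLF3, a repressor, measured 169, 167, and 171 CPM at 4 h and 385, 407, and 398 CPM at 8 h (log2 fold change 1.23 ± 0.06, limma-voom adjusted p = 1.61e-20), and KLF13 rose from 38.6 ± 1.82 CPM to 54.8 ± 2.19 CPM. Of the 13 mitochondrially encoded genes, 2 rose and 6 fell, between log2 fold changes of -0.31 and 0.39. MT-ATP8 rose from 809.8 ± 69.4 CPM to 1058 ± 48.2 CPM, and MT-CO3, MT-ND2, and MT-ND6 had -0.23, -0.25, and -0.31. Their summed share of all counts was 9.31% ± 0.06 at 4 h and 8.85% ± 0.19 at 8 h (n = 3 each, exact two-sided permutation p = 0.1, the smallest that 3 against 3 allows).

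Most genes of the prostate program fell. Of 8 lineage factors, 7 fell and 1 rose, with a median log2 fold change of -0.53. HOXB13, a homeobox factor of prostate epithelium, measured 182, 187, and 183 CPM at 4 h and 115, 109, and 107 CPM at 8 h (log2 fold change -0.73 ± 0.06, limma-voom adjusted p = 3.48e-13), and SPDEF, a prostate ETS factor, had a log2 fold change of -0.63 ± 0.07. HOXB13 was at 234 ± 8.60 CPM in DMSO and 95.6 ± 14.7 CPM at 12 h. KLF5 was the lineage factor that rose, from 32.1 ± 2.17 CPM to 60.1 ± 6.50 CPM. Of 18 androgen-regulated genes, 10 fell and 3 rose, with a median of -0.27. PMEPA1, a membrane protein that restrains androgen and TGF-beta signalling, measured 1020.2, 1006, and 1036 CPM at 4 h and 489, 477, and 471 CPM at 8 h (log2 fold change -1.09 ± 0.06, limma-voom adjusted p = 1.89e-18), and SLC45A3, a prostate transporter, fell from 28.1 ± 1.06 CPM to 13.8 ± 0.521 CPM. CAMKK2 and STEAP4 had log2 fold changes of -0.58 ± 0.05 and -0.62 ± 0.15, and KLK3, which encodes prostate-specific antigen, had -0.52 ± 0.06. In bulk RNA, fewer cells of a kind and less RNA per cell cannot be told apart.

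The label of the cells was checked against markers of the types a prostate sample could hold. Summed marker levels are CPM without the TMM scaling. All 10 luminal markers were detected, and their summed level was 7947 to 8041 CPM at 4 h and 5958 to 6042 CPM at 8 h. Of the 10, 7 fell and 3 rose, the latter being KRT8, KRT18, and CDH1. Basal markers summed to 4.18 to 4.91 CPM at 4 h and 3.37 to 5.75 CPM at 8 h, with 3 of the 4 in the table and TP63 at or below 3 counts in every sample at 4 h. Fibroblast and smooth muscle markers summed to 5.21 to 6.67 CPM at 4 h and 9.07 to 12.9 CPM at 8 h, with COL1A2, COL3A1, DCN, and PDGFRB at or below 3 counts in every sample of both times, and the 3 tested members, COL1A1, LUM, and ACTA2, all rose, COL1A1 from 2.89 ± 0.547 CPM to 5.43 ± 1.30 CPM. TP63 and the endothelial receptor KDR rose as well. Endothelial markers summed to at most 2.48 CPM at either time, with CDH5 at or below 3 counts, and leukocyte markers to at most 3.52 CPM, with PTPRC and CD3E at or below 3 counts. The neuroendocrine sum was 192 to 200.4 CPM at 4 h and 179 to 184 CPM at 8 h, where CHGB fell from 98.2 ± 2.70 CPM to 82.1 ± 2.18 CPM and SYP rose from 47.5 ± 2.20 CPM to 55.0 ± 2.89 CPM. Basal, fibroblast, endothelial, and leukocyte markers were thus near 0 beside the luminal ones at both times, and neuroendocrine markers were not. The part of these levels in the other results was not tested.

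ERG itself fell. It measured 178, 184, and 178 CPM at 4 h and 96.6, 94.0, and 90.7 CPM at 8 h, with no overlap (log2 fold change -0.94 ± 0.05, limma-voom adjusted p = 2.51e-18), which is below the fold change needed for a call. ERG was at 289 ± 8.85 CPM in DMSO and 97.2 ± 7.66 CPM at 12 h, so its level at 8 h was near that at 12 h. Its gene lies on the minus strand at chr21:38380027-38661780 on GRCh38, and the counts do not separate the fusion transcript from that of the other allele. TMPRSS2, the 5′ partner of the fusion, fell from 20.6 ± 1.86 CPM to 14.1 ± 2.60 CPM. Of 21 tested ETS genes, 10 rose and 5 fell, with a median of 0.05. ETV7 and ETS1 rose from 6.44 ± 1.03 CPM to 19.5 ± 2.30 CPM and from 10.7 ± 1.06 CPM to 20.3 ± 1.62 CPM, and ELK3 fell from 5.30 ± 1.15 CPM to 2.47 ± 0.116 CPM. Of the 9 tested genes that the study names as regulated by ERG, none rose and 8 fell, with a median of -0.65. The study took such genes from its ERG knockdown and showed them beside these PBITE-1 samples, and as the choice may have drawn on both, the count is not taken as independent evidence of its direction. DLX1, a homeobox factor, measured 12.0, 11.8, and 13.3 CPM at 4 h and 4.55, 6.26, and 7.08 CPM at 8 h (log2 fold change -1.12 ± 0.16, limma-voom adjusted p = 2.28e-07) and was the 1 called. TDRD1, a germline gene expressed in ERG-positive tumours, measured 195, 206, and 213 CPM at 4 h and 108, 101, and 109.6 CPM at 8 h (log2 fold change -0.95 ± 0.05, limma-voom adjusted p = 1.01e-18). CAPN15, ARHGDIB, and TRIM14 had log2 fold changes of -0.97 ± 0.16, -0.65 ± 0.07, and -0.62 ± 0.05, and USP36 and PLA1A had -0.46 ± 0.07 and -0.27 ± 0.06. PLAT, tissue plasminogen activator, measured 2.47, 2.51, and 1.48 CPM at 4 h and 1.46, 1.93, and 0.628 CPM at 8 h and overlapped between the times, with -0.68 ± 0.35 (limma-voom adjusted p = 0.0947), and without replicate 3 of 4 h it had -0.94 (limma-voom adjusted p = 0.0293).

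The knockdown samples offered lists of genes that changed with Dox in VCaP-shERG cells, and they share no sample with the 4 h and 8 h groups. The series has no samples with another hairpin under Dox, so effects of Dox and of the loss of ERG cannot be told apart. ERG measured 448 ± 13.7 CPM in shERG-DMSO and 164 ± 4.63 CPM in shERG-Dox, and its change with Dox was -1.44 ± 0.04 on the log2 scale (limma-voom adjusted p = 3.29e-22). Of the tested genes, 1019 (7.19%) were called lower with Dox and 1699 (12.0%) higher. From 4 to 8 h of PBITE-1, 469 of the 1019 (46.0%) fell and 161 (15.8%) rose, with a median log2 fold change of -0.20, against 26.3% and 26.7% of all tested genes. Of the 1699, 538 (31.7%) rose and 155 (9.12%) fell, with a median of 0.26. With the fold change threshold, 53 of the 1019 (5.20%) were called lower at 8 h and 18 (1.77%) higher. Of the 1699, 226 (13.3%) were called higher and 56 (3.30%) lower. Among all tested genes 4.43% were called higher and 2.22% lower. The 53 make up 16.8% of all genes called lower at 8 h, and the 226 make up 36.0% of all called higher. The 56 make up 17.8% of all called lower, a share close to that of the 53 but from a longer list, and the 18 make up 2.87% of all called higher. The genes in neither list, 11446, had a median of -0.00. Genes described above were set beside the knockdown after their values were seen. INSIG1, VEGFA, and FASN rose here and had log2 fold changes of -1.28, -1.77, and -1.06 with Dox, and HOXB13, which fell here, had 0.75 with Dox and was not called there. MYBBP1A fell here and had -1.47 with Dox.

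**Figure D5:**
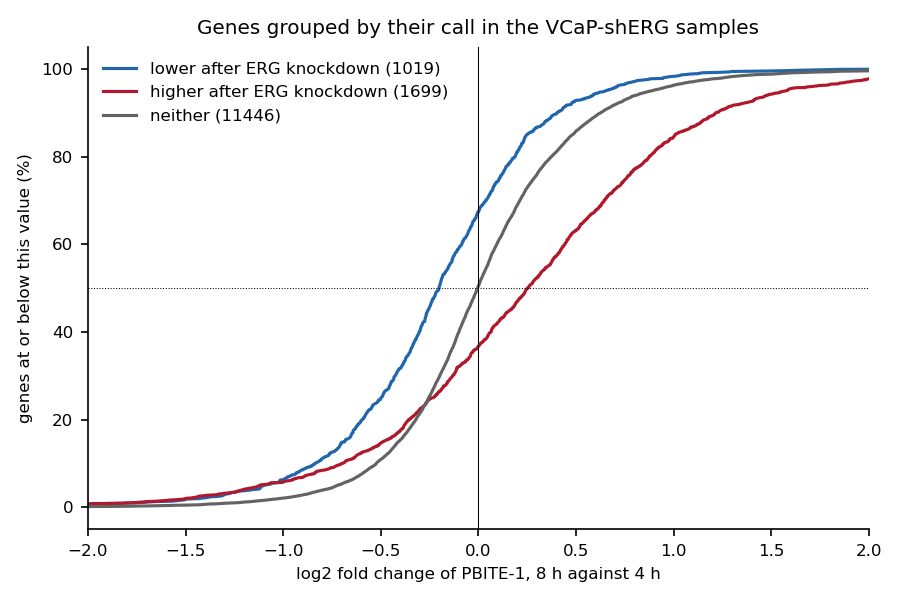
Cumulative share of genes (vertical axis, %) by log2 fold change of 8 h against 4 h (horizontal axis, cut at -2 and 2) for the 1019 genes lower after ERG knockdown (blue), the 1699 higher (red), and the 11446 others (grey). The blue curve crosses 50% at -0.20 and the red curve at 0.26, while the grey curve crosses it near 0.

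Genes called higher had a longer median span than genes called lower, an aspect looked at after the data were seen and given without a test. The median span from start to end in GENCODE 29 was 49.6 kb for genes called higher, 25.4 kb for genes called lower, and 32.6 kb for all tested genes with a span. Among the 10% of genes with the longest spans, median 266 kb, 8.99% were called higher and 2.69% lower, and among the 10% with the shortest, median 2.71 kb, 2.62% and 3.40% were. Among genes with a mean of at least 50 counts the shares called higher were 5.45% for the longest and 1.41% for the shortest, and the shares called lower 1.88% and 1.66%, in the opposite order to that over all genes. DNAH9 and AHR, among the genes that rose, span 371 kb and 429.8 kb, and BNC2 and MAML3, among those that fell, 461 kb and 437 kb, so long genes were found on both sides.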

How the data were processed

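RNA was depleted of ribosomal RNA and sequenced in paired ends. The authors deposited raw counts per gene for 18 samples, without normalization. The submitters' processing notes name STAR, featureCounts, and hg38, while the study's methods name Kallisto; which of them made the deposited counts, the annotation, and the use of strand are not given in the sources used here. Of 22034 genes, 22011 were matched to a symbol, and positions came from GENCODE 29. Genes were kept by filterByExpr over the 6 groups, which left 14164 (64.3%). Counts were scaled by TMM (edgeR 4.0.16) and tested with limma-voom (limma 3.58.1, R 4.3.3) in the 12 parental samples, with the contrast of 8 h minus 4 h and Benjamini-Hochberg adjustment over all tested genes. The knockdown was fitted in its own 6 samples. Lists were described by counts and medians, without a set test. The comparison, its members, and the lists were chosen with earlier results of these data known. Named genes are the 10 most positive and 10 most negative called genes without overlap and with at least 50 counts, up to 4 members of each list by size of change, and ERG with the study's ERG-regulated genes; exceptions are marked in the text, and some genes that the rule names are not reported here. In simulated 8 h against 4 h counts, all 100 genes with a log2 fold change of 1.5 and all 100 with 2 were recovered, with 2 false calls among 14164 genes. The changed genes were drawn only from those with a mean of at least 50 counts. They were raised and lowered in equal number and all other genes were left unchanged, whereas in the data 26.7% of tested genes rose and 26.3% fell. The 2 false calls therefore give no error rate for the calls made here. Recovery of genes with fewer counts, or of changes near a log2 fold change of 1, was not tried. As alternatives, DESeq2 1.42.0 and edgeR's quasi-likelihood test were run, with other normalizations, filters, samples, and thresholds, and leaving out each sample in turn.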

Additional observations from a re-analysis of the deposited data

How the results depend on the processing

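The 628 genes called higher and 315 called lower at 8 h stayed within 1.5 times of these counts under edgeR's quasi-likelihood test (626 and 312), DESeq2's Wald test (572 and 301), RLE, upper-quartile, and library size normalization, no filter on low counts, a fit of the 6 samples at 4 h and 8 h or of all 18, and sample quality weights. They moved to 268 and 149 among the 11807 genes with at least 10 counts in every sample, to 3783 and 3732 with no fold change threshold, and to 87 and 20 when the test itself was set against a log2 fold change of 1. The filter and the thresholds do this by construction. With 1 of the 6 samples left out at a time there were 573 to 638 higher and 282 to 322 lower calls. The genes called were less stable than these totals. Of the 628 higher calls, 513 to 572 were kept, and of the 315 lower calls, 239 to 269. With the replicate number as a block there were 634 and 321, of which 610 and 304 were shared with the fit without it. Deviations of same-numbered samples at 4 h and 8 h had correlations across genes of -0.02, -0.03, and 0.02, so the numbers do not pair the samples, and not every sample correlated best with its own number.

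Named genes kept their direction under every setting run. Apart from the test against a fold change, which 139 named genes did not pass, the adjusted p no longer passed for IRF9 with no filter (log2 fold change 0.52, adjusted p = 0.0579) and without replicate 2 or 3 of 4 h or replicate 3 of 8 h, for DUSP2 without replicate 1 of 4 h (-0.49, adjusted p = 0.0692) and without replicates 1 or 3 of 8 h, for SPRY2 without the same 3 samples, for CHGA without replicate 1 of 4 h, and for PHF1 without replicate 2 of 8 h, by the limma-voom test. None of these 5 genes was called. Of the 64 named genes that were called, 13 fell to a log2 fold change below 1 in size under at least 1 alternative with their adjusted p still under 0.05. FASN did so under 6 of 17 alternatives (smallest log2 fold change 0.96) and AHR under 5 of 16 (0.88), and ALDH1L2, BID, CCL20, CXCL1, DLX1, ELK3, INSIG1, IRF7, NOP16, POLR1A, and SLC45A3 under 1 each. Counts of list members that rose or fell moved by over 1.5 times in 67 cases and stayed within it in 1259. Medians of the lists moved by more than their SD over the samples at 8 h in 95 cases and stayed within it in 607. Besides those given with the lists, 1 sample left out changed the members that fell from 2 to 1 for the KLF, fatty acid, and p53 lists, from 1 to 0 for amino acid transporters, and from 0 to 1 for interferon-stimulated genes, and those that rose from 2 to 1 for the mitochondrially encoded and polycomb lists. Depth limits the genes with a mean under 50 counts, which were 327 of the higher and 190 of the lower calls.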
